A study of Mus musculus with 4 samples.

Results

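Th1 cells lacking STAT4 were compared with Th2 cells lacking STAT6, to see how much of the difference between the 2 helper T cell types is present when each lacks its own STAT protein. The comparison used 2 of the 4 arrays of the study, 1 for each knockout, and took the deposited log2 value of Th1 STAT4-deficient minus that of Th2 STAT6-deficient for the 45037 probe sets that are not array controls. A positive difference therefore means a higher level in STAT4-deficient Th1 cells. The remaining 2 arrays, Th1 wild type and Th2 wild type, gave the same difference with both STATs present. The pair of knockouts and the pair of wild types share no array.

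Naive CD4+ T cells (CD44-CD62L+) were sorted from spleen and lymph nodes of mice whose genotypes are labelled C57BL/6J for both wild types, C57BL6-STAT4<tm1> for the STAT4-deficient cells and B6.129S2©-STAT6<tm1Gru>/J for the STAT6-deficient cells. All cultures were activated through CD3 and CD28 for 3 days and expanded in IL-2 at 50 U/ml for 4 days. Th1 cultures also had IL-12 at 20 ng/ml and a blocking antibody to IL-4 during activation, then IL-12 at 10 ng/ml. Th2 cultures had IL-4 at 10 ng/ml throughout, and a blocking antibody to interferon gamma during activation. After 7 days all cells were restimulated through CD3 and CD28 for 2 h, with IL-12 for Th1 and IL-4 for Th2. The 2 knockout arrays thus differ in the missing STAT, the mouse line, the cytokine and the blocking antibody, and these cannot be told apart. The labels name neither the age of the mice nor how many mice or cultures an array stands for. With 1 array a group no difference has a replicate check, and none is tested.

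STAT4 is activated mainly by the IL-12 receptor and drives interferon gamma and the Th1 program together with the transcription factor T-bet. STAT6 is activated by the IL-4 receptor and drives GATA3, IL-4, IL-5 and IL-13, the core of the Th2 program. Type I interferons, made mostly by cells that sense viral nucleic acids, switch on antiviral genes, many of which carry the interferon-stimulated response element (ISRE) in their promoters.

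Antiviral genes induced by interferon had the 4 largest differences between the knockouts, so stretches of the promoters of 5 interferon-related genes are shown with their ISRE matches in capitals. A match was GAAA, then 2 bases of any kind, then GAAA on either strand, so that on the reverse strand TTTC stands on both sides of the 2 bases. Ifna4 encodes a type I interferon, Ifit1, Ifit3 and Rsad2 are antiviral effectors, and Gbp2 is a guanylate-binding GTPase induced by interferons.
Ifna4: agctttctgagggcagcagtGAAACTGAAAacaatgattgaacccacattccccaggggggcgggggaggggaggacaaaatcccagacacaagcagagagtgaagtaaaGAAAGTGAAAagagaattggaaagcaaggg
Ifit1: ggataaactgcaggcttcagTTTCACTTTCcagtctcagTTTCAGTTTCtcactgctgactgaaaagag
Ifit3: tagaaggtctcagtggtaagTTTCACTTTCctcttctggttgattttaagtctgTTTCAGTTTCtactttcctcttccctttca
Rsad2: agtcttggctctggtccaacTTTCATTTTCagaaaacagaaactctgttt
Gbp2: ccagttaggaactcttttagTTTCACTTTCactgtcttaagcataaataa
These sequences are from RefSeq on GRCm38.p6, written 5′ to 3′ along the gene, and lie at chr4:88841588-88841727 (plus strand), chr19:34640765-34640833 (plus), chr19:34583353-34583436 (plus), chr12:26456543-26456592 (minus) and chr3:142620584-142620633 (plus), upstream of an annotated start. The matches in Ifit1 begin 104 and 85 bases before the start, and those in Ifna4 begin 208 and 118 bases before it. The Rsad2 match begins 120 bases before the start and the Gbp2 match 59 bases before it.

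The genes for interferon gamma (Ifng) and for the signalling chain of the IL-12 receptor (Il12rb2) are shown for contrast, because both are central to the Th1 program and their differences between the knockouts were small. Capitals mark a match to the STAT palindrome TTCNNNGAA.
Ifng: tTTCAGAGAAtcccacaagaatggcacagg
Il12rb2: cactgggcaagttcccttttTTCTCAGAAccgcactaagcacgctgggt
They lie at chr10:118440796-118440825 (plus strand) and chr6:67376283-67376331 (minus strand), with the matches beginning 249 and 123 bases before the start.

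All 4 arrays carried high levels of T cell genes: the log2 of the summed linear levels of 7 CD4 T cell markers lay between 15.18 and 15.37. Such a sum is set mostly by its brightest members, and single markers differed between the knockouts (Cd4 by 1.97 and Cd3g by −1.12). The targeted genes gave little information on the labels. Stat4 read 9.20 in STAT4-deficient Th1 beside 11.45 in wild type Th1, and 9.90 in STAT6-deficient Th2 beside 8.96 in wild type Th2, so it was lower in the STAT4-deficient than in the wild type Th1 array and still well above that array's median of 6.01. Stat6 read 11.67, 11.17, 10.92 and 10.93 in the same order, with no drop on the STAT6-deficient array. Whether these probe sets lie within the deleted parts of the genes is not given in the sources used here, so a remaining signal does not check a label. RNA quality differed: the 3′ beta-actin control exceeded the 5′ control by 0.66 log2 units on the STAT4-deficient array and by 2.08 on the STAT6-deficient array, against 0.32 and 0.85 in wild type Th1 and Th2. The part of this gap in the differences described here was not tested. Array medians were 6.01 for Th1 STAT4-deficient and 5.63 for Th2 STAT6-deficient, and over all 18193 genes the median difference was 0.21.

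A gene was called where its main probe set differed by at least 1 log2 unit (2-fold) and its brighter array was at or above 5.82, the median taken over all probe sets and arrays. Of 12582 genes that reached this level on a knockout array, 2875 were called (22.9%). STAT4-deficient Th1 cells had the higher level for 1585 of them (12.6% of genes at the level minimum) and STAT6-deficient Th2 cells for 1290 (10.3%). Between the wild types 4058 of 12111 genes were called (33.5%), 986 higher in Th1 (8.14%) and 3072 higher in Th2 (25.4%). The wild type calls were thus mostly toward Th2, while 55.1% of the knockout calls were toward STAT4-deficient Th1. That split depended on the scaling between arrays: with each array centred on its median, 603 genes were higher in STAT4-deficient Th1 and 2607 in STAT6-deficient Th2 (18.8% toward Th1), and when the hybridization controls set the centre the counts were 2217 and 1025 (68.4%). The dimmer array was below the level minimum in 67.1% of the genes called higher in STAT4-deficient Th1, and in 17.3% of those called higher in STAT6-deficient Th2.

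The wild type difference was in part present between the knockouts. Of 866 genes called higher in wild type Th1 that reached the level minimum in both comparisons, 284 (32.8%) were also called higher in STAT4-deficient Th1, against the 12.6% of all genes. The knockouts called 80 of them (9.24%) the other way and did not call 502 (58%). Of 2842 genes called higher in wild type Th2, 611 (21.5%) were also called higher in STAT6-deficient Th2, against 10.3% of all genes. The other way went 83 (2.92%), and 2148 (75.6%) were not called. The median knockout difference was 0.62 for the wild type Th1 genes, where the median wild type difference was 1.41, and −0.43 for the wild type Th2 genes, where it was −1.48. With arrays centred on their medians the kept shares were 17.0% and 39.5%, so which of the 2 programs kept more calls turned with the scaling.

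Among the genes higher in wild type Th2, the kept share was larger where the wild type difference was larger. It was 16.4% of 2213 genes with a difference of 1 to 2 log2 units, 34.4% of 474 genes at 2 to 3, 51.9% of 106 genes at 3 to 4 and 59.2% of 49 genes at 4 or more. No such order was seen among the genes higher in wild type Th1, where the shares were 33.1% of 689, 33.3% of 132, 21.9% of 32 and 38.5% of 13 genes, the last resting on few genes. The share called the other way was 25.0% of the 32 wild type Th1 genes at 3 to 4 log2 units. Across the 11546 genes at the level minimum in both comparisons the knockout and wild type differences had a Pearson correlation of 0.39 and a Spearman correlation of 0.41. These are across genes, which are not independent replicates, and carry no p-value.

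**Figure D1:**
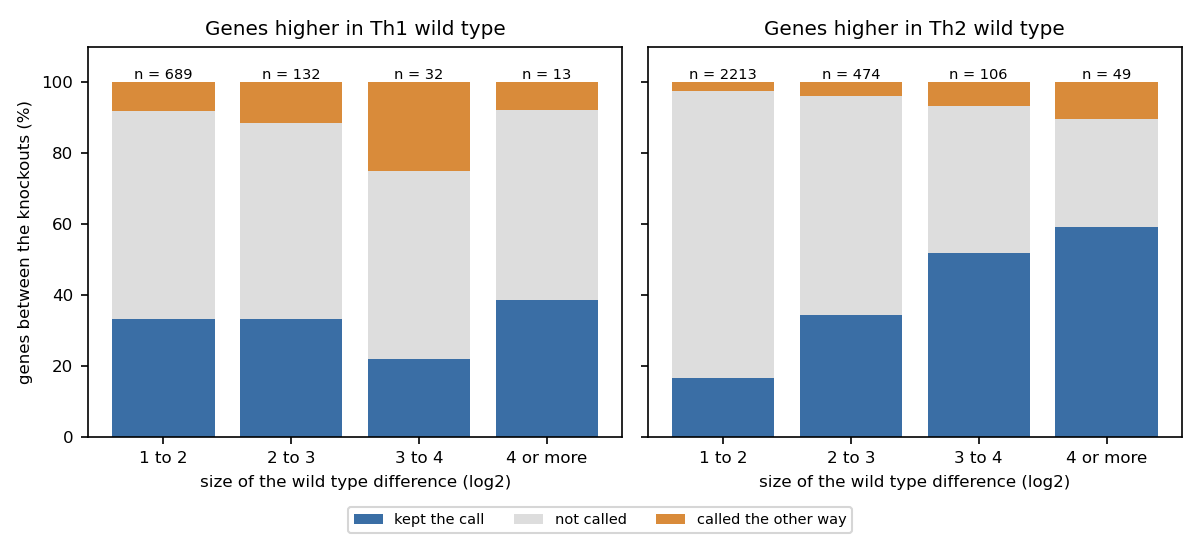
Share of genes (%) called between the wild types that kept the call between the knockouts (blue), were not called (grey) or were called the other way (orange), by the size of the wild type difference in log2 units, with the number of genes above each bar. The kept share is larger in each next bin for genes higher in wild type Th2 (16.4% to 59.2%) and stays between 21.9% and 38.5% for genes higher in wild type Th1.

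Ifng and Tbx21, signature genes of Th1 cells, were nearly level between the knockouts, which other Th1 genes described below were not. Ifng, the gene for the defining Th1 cytokine, read 14.67 in Th1 wild type and 8.18 in Th2 wild type, and 10.54 in STAT4-deficient Th1 against 10.20 in STAT6-deficient Th2. The wild type difference of 6.49 log2 units stood beside 0.33 between the knockouts, both of which lay between the wild types. Tbx21, which encodes T-bet, read 12.26 and 7.69 in the wild types, 11.36 in STAT4-deficient Th1 and 11.85 in STAT6-deficient Th2. Its difference was 4.57 in the wild type pair and −0.50 in the knockout pair, and STAT6-deficient Th2 was close to wild type Th1. In bulk RNA, fewer cells making a transcript and less of it per cell cannot be told apart, here and in every result below.

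The same pattern held for the chemokine Xcl1, which had the largest wild type difference of the Th1 list. It read 12.02 in Th1 wild type and 4.10 in Th2 wild type, below the level minimum, but 9.97 in STAT4-deficient Th1 and 9.71 in STAT6-deficient Th2. Il18r1, the binding chain of the IL-18 receptor, read 12.78 and 8.28 in the wild types and 10.93 and 10.22 in the knockouts. Lymphotoxin alpha (Lta) read 12.53 and 8.83 in the wild types, 11.87 in STAT4-deficient Th1 and 12.51 in STAT6-deficient Th2. Tnf and Ccl3, both induced on restimulation, differed by 2.95 and 4.64 in the wild type pair and by −0.34 and −0.92 in the knockout pair. In each of these genes both knockouts lay between the 2 wild types.

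Il12rb2 was the only gene of the 16 Th1 list members called higher in wild type Th1 that kept its call. It read 9.63 in wild type Th1, 6.53 in STAT4-deficient Th1, 4.52 in wild type Th2 and 5.48 in STAT6-deficient Th2, a difference of 1.05 between the knockouts. Both Th2 arrays were below the level minimum, and the difference was 0.64 to 1.17 over the 4 alternative scalings, so that it kept its call in 1 of them. With the dimmer array set to the level minimum the difference was 0.71.

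Some Th1 genes had the opposite sign to the wild types. Ccl5, a chemokine of effector T cells, read 12.14 in Th1 wild type and 8.62 in Th2 wild type, but 9.68 in STAT4-deficient Th1 and 12.45 in STAT6-deficient Th2, a difference of 3.52 turned to −2.77. Il18rap, the signalling chain of the IL-18 receptor, read 9.03 in STAT4-deficient Th1 and 10.42 in STAT6-deficient Th2 (−1.38), with 2.42 between the wild types. Cxcr3, the receptor that brings Th1 cells to inflamed tissue, read 9.66 and 10.80 in the knockouts (−1.14) after 12.26 and 8.95 in the wild types. Fasl, the death ligand, read 10.86 and 11.90 in the knockouts (−1.05). Cxcr3 kept its call in 2 of the 4 other scalings and Fasl in 1, while Ccl5 and Il18rap kept theirs in all 4.

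Il12rb1 and Havcr2 stood apart from the rest of the Th1 list because both were higher in Th2 with and without the STATs. Il12rb1, the shared chain of the IL-12 and IL-23 receptors, read 7.77 and 10.98 in the wild types and 6.65 and 10.10 in the knockouts, differences of −3.22 and −3.45. Havcr2, which encodes the inhibitory receptor TIM-3, read 7.25 and 11.37 in the wild types and 6.14 and 8.88 in the knockouts (−2.74). Cxcr6 went the other way, at 11.15 and 12.52 in the wild types but 8.17 in STAT4-deficient Th1 and 6.62 in STAT6-deficient Th2 (1.54).

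Over the 20 members of the Th1 list at the level minimum, 2 were higher in STAT4-deficient Th1 and 6 in STAT6-deficient Th2. So 40% were called, against 22.9% of all genes. The median difference was −0.57 (−0.94 to −0.22 over the other scalings), beside a median of 0.02 over all genes at the minimum. The same list had 16 members higher in wild type Th1 and 4 higher in wild type Th2, with a median of 2.49. Of the 16, 1 kept its call, 4 were called the other way and 11 were not called. Among all genes called higher in wild type Th1, 32.8% kept the call and 9.24% were called the other way.

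**Figure D2:**
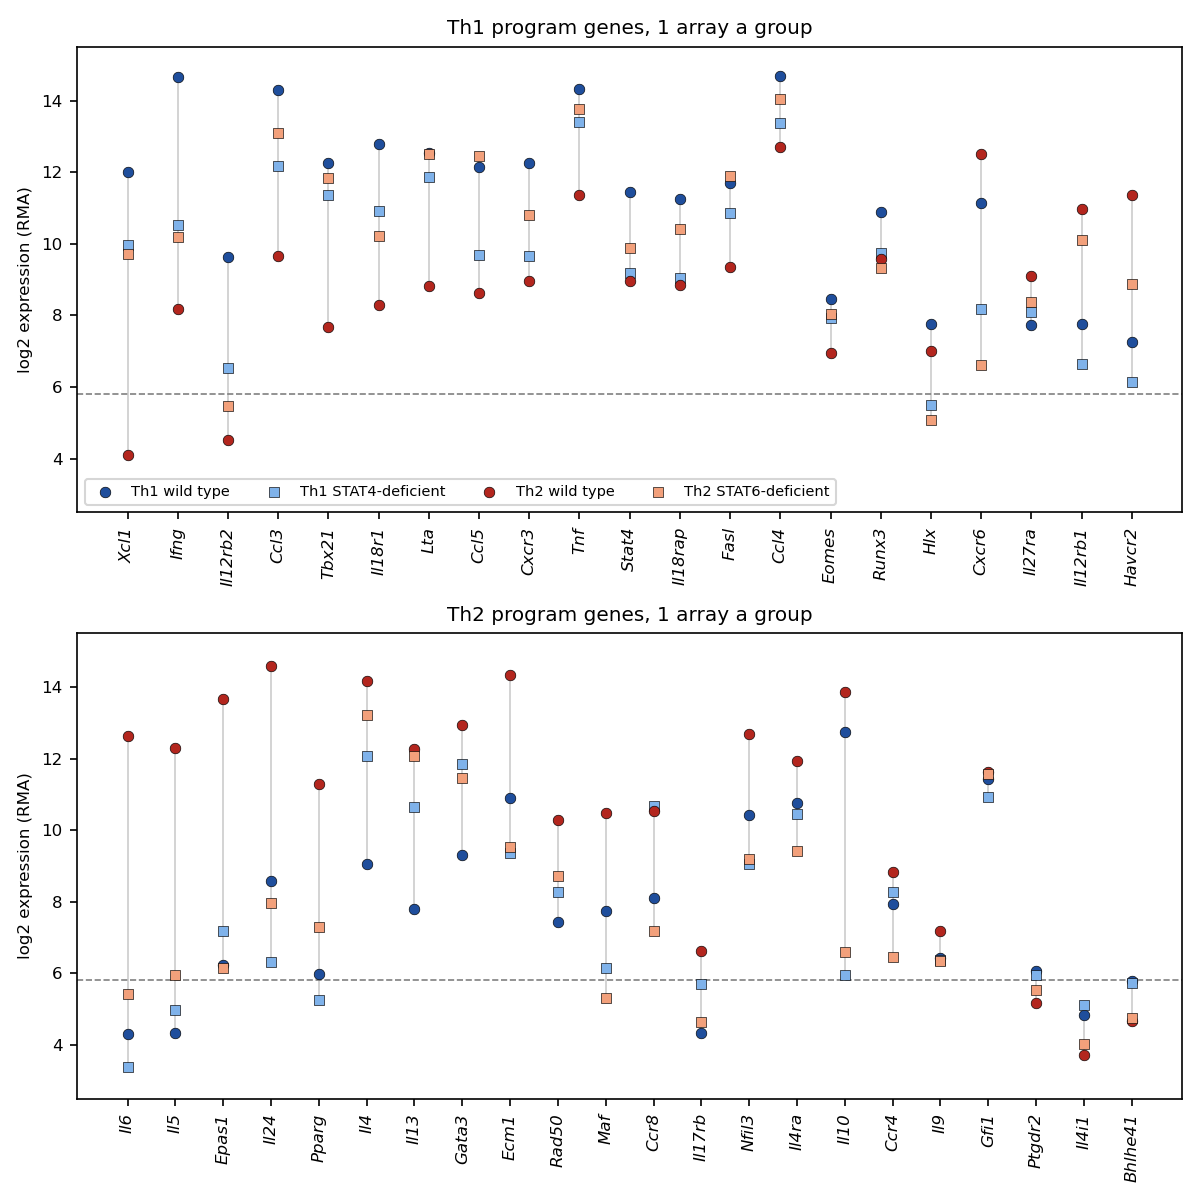
Log2 expression (RMA) of every measured gene of the Th1 list (top) and Th2 list (bottom) on each of the 4 arrays, wild types as circles and knockouts as squares, ordered by the wild type difference, with the level minimum of 5.82 dashed. For Ifng, Tbx21, Xcl1 and Il4 both squares lie between the circles, and for Ccl5 the STAT6-deficient Th2 square lies above both circles.

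The Th2 cytokine genes Il4 and Il13 stayed higher in the Th2 culture without STAT6, by a smaller margin. Il4 read 9.06 in Th1 wild type and 14.17 in Th2 wild type, and 12.07 in STAT4-deficient Th1 and 13.22 in STAT6-deficient Th2. Its difference was −5.11 with both STATs and −1.15 without them. Il13 read 7.80 and 12.26 in the wild types and 10.66 and 12.08 in the knockouts, −4.45 against −1.42. In both genes STAT4-deficient Th1 lay well above wild type Th1, and STAT6-deficient Th2 lay close below wild type Th2. Il4 kept its call in 2 of the 4 other scalings (−1.53 to −0.83) and Il13 in all 4.

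Gata3, the master transcription factor of Th2 cells, was level between the knockouts. It read 9.31 in Th1 wild type, 12.95 in Th2 wild type, 11.84 in STAT4-deficient Th1 and 11.45 in STAT6-deficient Th2, so the wild type difference of −3.64 stood beside 0.39. Il5, Il10 and Ecm1 were far below wild type Th2 in both knockouts. Il5, the eosinophil growth factor, read 12.31 in Th2 wild type, 4.99 in STAT4-deficient Th1 and 5.95 in STAT6-deficient Th2, the last just above the level minimum. Il10, the anti-inflammatory cytokine, read 12.74 and 13.87 in the wild types but 5.94 and 6.61 in the knockouts, where both were close to the minimum. Ecm1 read 14.32 in Th2 wild type and 9.37 and 9.52 in the knockouts, a difference of −0.15.

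Il24 and Pparg kept part of their Th2 bias at much reduced levels. Il24, a cytokine of the IL-10 family, read 14.60 in Th2 wild type, 6.31 in STAT4-deficient Th1 and 7.97 in STAT6-deficient Th2 (−1.66). Pparg, a nuclear receptor used by Th2 cells, read 11.30 in Th2 wild type, 5.27 in STAT4-deficient Th1 and 7.29 in STAT6-deficient Th2 (−2.02). With the dimmer array at the level minimum the Pparg difference was −1.47.

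Ccr8, Ccr4, Il4ra and Epas1 were the Th2 list members higher in STAT4-deficient Th1 cells. Ccr8, a chemokine receptor of Th2 and regulatory T cells, read 8.12 in Th1 wild type and 10.54 in Th2 wild type, but 10.68 in STAT4-deficient Th1 and 7.20 in STAT6-deficient Th2. The difference turned from −2.43 to 3.48, an 11.2-fold higher level in STAT4-deficient Th1. Ccr4, its partner on Th2 cells, read 8.27 in STAT4-deficient Th1 and 6.45 in STAT6-deficient Th2 (1.82). Il4ra, the signalling chain of the IL-4 receptor, read 10.76 and 11.95 in the wild types and 10.46 and 9.42 in the knockouts (1.04), called in 3 of the 4 other scalings, with other probe sets at up to 2.70. Epas1, which encodes HIF-2 alpha, read 13.67 in Th2 wild type but 7.18 and 6.14 in the knockouts (1.04, called in 2 of the 4 other scalings).

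Over the 18 members of the Th2 list at the level minimum, 4 were higher in each knockout, so 44.4% were called, against 22.9% of all genes. The median difference was −0.15, with a range of −0.53 to 0.07 over the other scalings, so its sign is not settled. Between the wild types 16 members were higher in Th2 and none in Th1, with a median of −2.79. Of those 16, 4 kept the call (Il4, Il13, Il24 and Pparg), 3 were called the other way (Ccr8, Epas1 and Il4ra) and 9 were not called, among them Il6 and Il17rb, which were below the level minimum on both knockout arrays. The kept share was near the 21.5% of all genes called higher in wild type Th2, of which 2.92% were called the other way.

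The 4 largest differences between the knockouts were in the antiviral interferon-stimulated genes Cmpk2, Mx1, Usp18 and Oasl2, all toward STAT6-deficient Th2. Cmpk2, a mitochondrial nucleotide kinase induced by interferon, read 4.83 in wild type Th1, 3.58 in STAT4-deficient Th1, 7.41 in wild type Th2 and 11.22 in STAT6-deficient Th2, a difference of −7.64. Mx1, an antiviral GTPase, read 5.57, 4.72, 8.59 and 12.07 in the same order (−7.35). Both were below the level minimum in STAT4-deficient Th1, and with that array set to the minimum the differences were −5.40 and −6.25. The probe sets of Cmpk2 ranged from −7.64 to −1.78. Usp18, which switches off the interferon receptor, read 7.77, 7.41, 10.14 and 13.38 (−5.97, 62.7-fold).

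Other antiviral genes were also highest on the STAT6-deficient array, whatever their wild type difference. Oas1a, which makes the messenger that activates RNase L, read 7.09 in wild type Th1, 7.60 in STAT4-deficient Th1, 7.23 in wild type Th2 and 11.96 in STAT6-deficient Th2 (−4.36), with −0.14 between the wild types. Rsad2, whose promoter stretch is shown above and which encodes viperin, read 7.40, 8.56, 9.19 and 13.68 (−5.11), with −1.79 between the wild types. Its probe sets ranged from −5.36 to −3.39. Ifit3, with 2 ISRE matches, read 8.48, 9.19, 6.50 and 12.98 (−3.80), and Ifit1 read 10.27, 11.14, 9.10 and 13.66 (−2.52). The 2 Ifit genes were higher in Th1 than in Th2 between the wild types, by 1.98 and 1.17.

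All 27 measured members of the antiviral list reached the level minimum, 26 were higher in STAT6-deficient Th2 and none in STAT4-deficient Th1, beside the 10.3% of all genes. The median difference was −3.43, and the count was 25 or 26 under the other scalings. In 26 of the 27 the STAT6-deficient array was the highest of all 4. The exception in the call was Ifi27, at 10.62 in STAT4-deficient Th1 and 10.80 in STAT6-deficient Th2. Between the wild types 3 members were higher in Th1 and 11 in Th2.

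Transcripts of the type I interferons themselves were higher on the same array. Ifna2 read 5.87 in wild type Th1, 6.03 in STAT4-deficient Th1, 5.09 in wild type Th2 and 10.87 in STAT6-deficient Th2 (−4.84). Ifna4 read 6.20, 5.96, 5.72 and 10.01 (−4.05), and Ifnb1, the interferon that usually starts the response, read 5.77, 5.41, 5.05 and 8.89 (−3.49). The other 3 arrays were near or below the level minimum for all of these. Interferon alpha genes are near-identical copies, and probe sets could share signal between them. Of 8 type I interferon genes at the minimum, 5 (62.5%, against 10.3% of all genes) were higher in STAT6-deficient Th2 and none in STAT4-deficient Th1 (median −2.22). That share is raised by members that reached the minimum only on the array where they were high, such as Ifnb1 and Ifnab (−2.81). With STAT4-deficient Th1 set to the minimum Ifnb1 was at −3.08 and Ifnab at −0.57, which is not a call. On the STAT6-deficient array Ifna9 and Ifnz were at 5.35 and 7.17, with differences of 0.73 and −0.15.

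Irf7, the transcription factor that amplifies interferon alpha production and is itself interferon-induced, read 7.95 in wild type Th1, 8.27 in STAT4-deficient Th1, 9.39 in wild type Th2 and 11.92 in STAT6-deficient Th2 (−3.64). It was the only called member of 8 interferon regulatory factors (12.5%, below the 22.9% of all genes). Irf1, an early target of interferon gamma, read 12.90 and 12.42 in the knockouts (0.48). The difference for Irf9, which takes part in type I interferon signalling, was −0.81, and that for Stat2, which acts with it, was −1.32.

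The interferon-inducible GTPases, which respond to interferon gamma as well as to type I interferon, differed less. Gbp2 read 13.42 in Th1 wild type, 9.92 in Th2 wild type, 11.92 in STAT4-deficient Th1 and 13.05 in STAT6-deficient Th2, a difference of 3.51 turned to −1.12 that kept its call in 1 of the 4 other scalings. Gbp3 read 11.35, 8.13, 9.99 and 11.46 (−1.47), and Gbp7 differed by −1.67. Of 8 GTPases 4 (50%, against 10.3% of all genes) were higher in STAT6-deficient Th2, and Irgm1, Irgm2, Igtp and Iigp1 differed by −0.79 to −0.14. In antigen presentation, 5 of 12 class I and immunoproteasome genes (41.7%, against 10.3% of all genes) were higher in STAT6-deficient Th2. They included the regulator Nlrc5 (−1.74) and the immunoproteasome subunit Psmb8 (−1.38), while H2-K1 and B2m differed by 0.01 and −0.21. Tap1 differed by −1.58 in its main probe set and by less in the others.

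The chemokines Cxcl10 and Cxcl11, which attract CXCR3-bearing cells and are interferon targets, were also higher on that array. Cxcl10 read 10.64 in Th1 wild type, 7.79 in Th2 wild type, 10.67 in STAT4-deficient Th1 and 12.84 in STAT6-deficient Th2, turning from 2.85 to −2.17. Cxcl11 turned from 2.41 to −1.36.

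Markers of cells that make type I interferon were measured beside these genes. Of 10 myeloid and dendritic markers 5 were below the level minimum on both knockout arrays, including Itgax, Itgam and Cd14, and 1 was higher in each knockout. That is 40% of the 5 at the minimum called, against 22.9% of all genes. The log2 of the summed linear levels of the 10 markers was 9.24 in wild type Th1, 9.13 in STAT4-deficient Th1, 9.68 in wild type Th2 and 9.39 in STAT6-deficient Th2. Adgre1, the brightest of them in wild type Th2, read 8.26 there and 5.92 in STAT6-deficient Th2. Siglech, a plasmacytoid dendritic cell marker, read 6.27 in STAT4-deficient Th1 and 5.58 in STAT6-deficient Th2. Lyz2 was the member higher in STAT4-deficient Th1, at 6.45 against 5.27 (1.18, or 0.63 with the dimmer array at the level minimum). Mpeg1, the macrophage perforin, was the member higher in STAT6-deficient Th2, at 8.12 against 5.57, with 5.38 and 4.66 in wild type Th1 and Th2. The same measure in STAT4-deficient Th1 and STAT6-deficient Th2 was 8.58 and 8.23 for B cell markers and 7.35 and 6.68 for natural killer cell markers. The part of other cells in the interferon result was not tested.

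**Figure D3:**
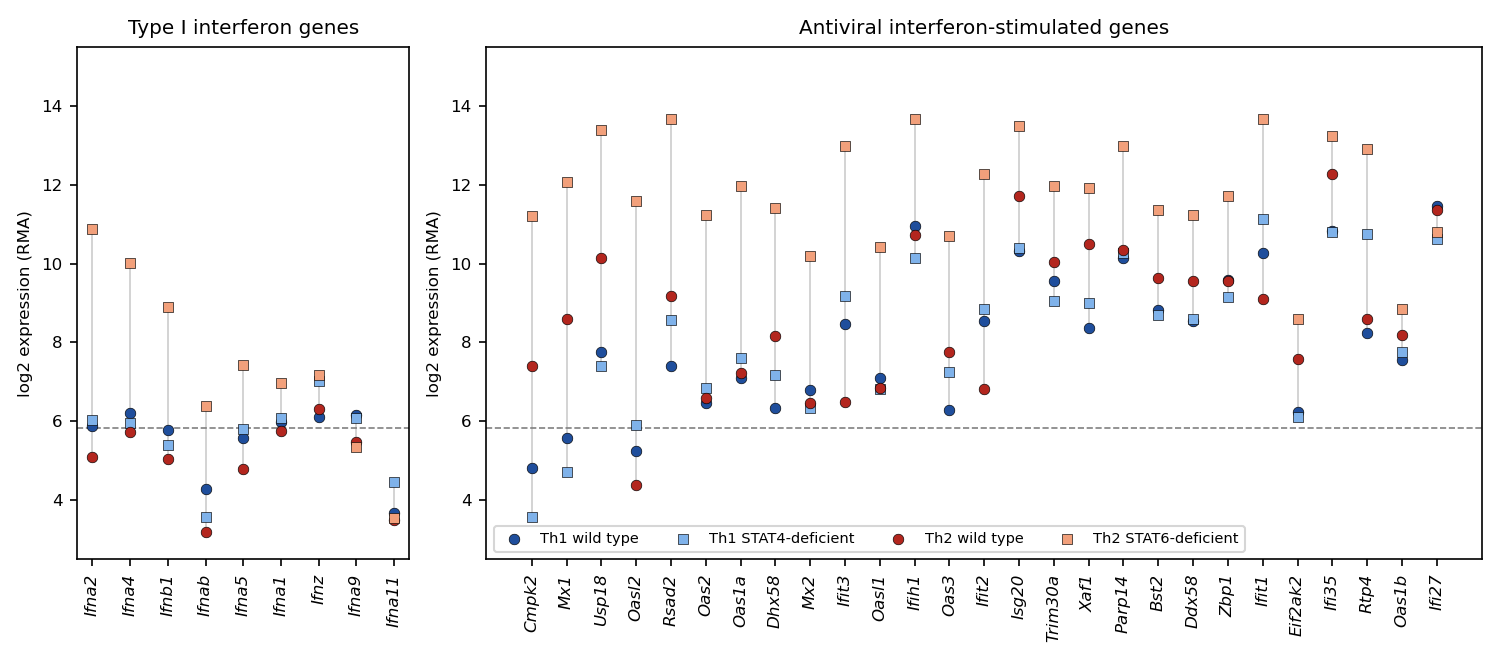
Log2 expression (RMA) of the type I interferon genes (left) and antiviral interferon-stimulated genes (right) on each array, ordered by the knockout difference, with the level minimum of 5.82 dashed. The STAT6-deficient Th2 array (orange squares) lies above the other 3 arrays for 26 of 27 antiviral genes, with Ifi27 as the exception.

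The ISRE letters were found in 11 of 21 promoters (52.4%) of antiviral list genes, 10 of 17 genes with an entry, and in 7 of 9 type I interferon promoters (77.8%). These interferon promoters include those of Ifna1 (−0.89) and Ifna9 (0.73), which were not called. The ISRE letters were in 3.44% of all 32851 promoters of 300 bases. Among the promoters of all genes higher in STAT6-deficient Th2 the share was 6.42%, and among those at least 4-fold higher 12.9% (34 of 263). Among those higher in STAT4-deficient Th1 it was 3.4%, and among those at least 4-fold higher there 5.04% (7 of 139). The STAT palindrome TTCNNNGAA was in 8.3% of all promoters, 19.0% of Th1 list promoters (4 of 21) and 4.76% of Th2 list promoters (1 of 21). The interferon lists had it more often than the Th1 list, in 28.6% of antiviral promoters (6 of 21) and 44.4% of type I interferon promoters (4 of 9). The T-box letters AGGTGTGA were in 1.28% of all promoters, and in none of the 21 Th1 list promoters. The palindrome with 4 instead of 3 bases between TTC and GAA was in 6.95% of all promoters and 9.52% of the 21 Th2 list promoters. Its share was higher in the Th1 list, at 19.0% (4 of 21), and in the antiviral list, at 14.3% (3 of 21), and no type I interferon promoter had it. A match is only a description of the letters in a window, and the palindromes and the ISRE can overlap.

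Cell cycle genes formed the second group that was higher in STAT6-deficient Th2, and here the wild types differed the same way. Of 29 members 14 (48.3%, against 10.3% of all genes) were higher in STAT6-deficient Th2, and 15 were not called. None was higher in STAT4-deficient Th1 (list median −1.0, and −1.37 to −0.83 over other scalings), whereas 28 were higher in wild type Th2 (median −2.33). Cdc6, which loads the replicative helicase, read 4.24 in wild type Th1, 4.31 in STAT4-deficient Th1, 9.58 in wild type Th2 and 7.04 in STAT6-deficient Th2 (−2.73). Ccne2, a G1/S cyclin, read 5.20, 3.89, 8.0 and 7.44 (−3.55). The dimmer array of both was below the minimum, with differences of −1.22 and −1.62 when it was set there.

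The brighter genes Mcm5, Rrm2 and Top2a gave smaller deposited differences, on the scale of the −1.22 and −1.62 above. Nearest to 0 among the members called between the wild types were Kif11 (0.06), Ccna2 (0.17) and Ccnb2 (0.19). Other probe sets of Kif11 were at up to 1.21, and another of Ccna2 was at −0.91. Mcm5, a subunit of that helicase, read 9.89 in wild type Th1, 9.34 in STAT4-deficient Th1, 12.22 in wild type Th2 and 10.98 in STAT6-deficient Th2 (−1.65). Rrm2, the ribonucleotide reductase subunit, read 9.0, 7.91, 12.21 and 9.71 (−1.80, and −0.91 and −0.35 in its other probe sets). Top2a read 9.73 and 10.89 in the knockouts (−1.16). For no cell cycle gene was the STAT6-deficient array the highest of 4.

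Of 19 glycolysis and hypoxia genes 6 were higher in STAT6-deficient Th2 (4 to 11 over the other scalings) and none in STAT4-deficient Th1 (median −0.73). The share higher in STAT6-deficient Th2 was 31.6%, against 10.3% of all genes. Aldoc, an aldolase, read 8.90 in wild type Th1, 8.52 in STAT4-deficient Th1, 12.26 in wild type Th2 and 11.27 in STAT6-deficient Th2 (−2.75), and Tpi1, triosephosphate isomerase, read 11.24, 10.60, 13.64 and 11.88 (−1.28). Genes of sterol and fatty acid synthesis had 3 of 20 (15%) higher in STAT6-deficient Th2, led by the desaturase Scd1 (−2.15), which is near the 10.3% of all genes and ran from 2 to 7 genes over the other scalings. Between the wild types 9 of 20 were higher in Th2. Of 15 genes of protein folding in the endoplasmic reticulum 9 were higher in wild type Th2 (median −1.61). Between the knockouts none was higher in STAT6-deficient Th2 (up to 2 over the other scalings) and 1, the disulfide isomerase Pdia3 (1.60), was higher in STAT4-deficient Th1. Their median was −0.29, and −0.67 at the lowest over the other scalings. Xbp1, which drives that program, read 12.29 and 13.90 in the wild types and 11.12 and 11.74 in the knockouts. Among 14 amino acid and stress response genes 4 (28.6%, against 10.3% of all genes) were higher in STAT6-deficient Th2 and none in STAT4-deficient Th1 (median −0.28). Between the wild types 9 were higher in Th2, of which 3 kept the call and 6 were not called. Those that kept it included Asns, asparagine synthetase, at −2.05 beside −2.27 in the wild types.

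**Figure D4:**
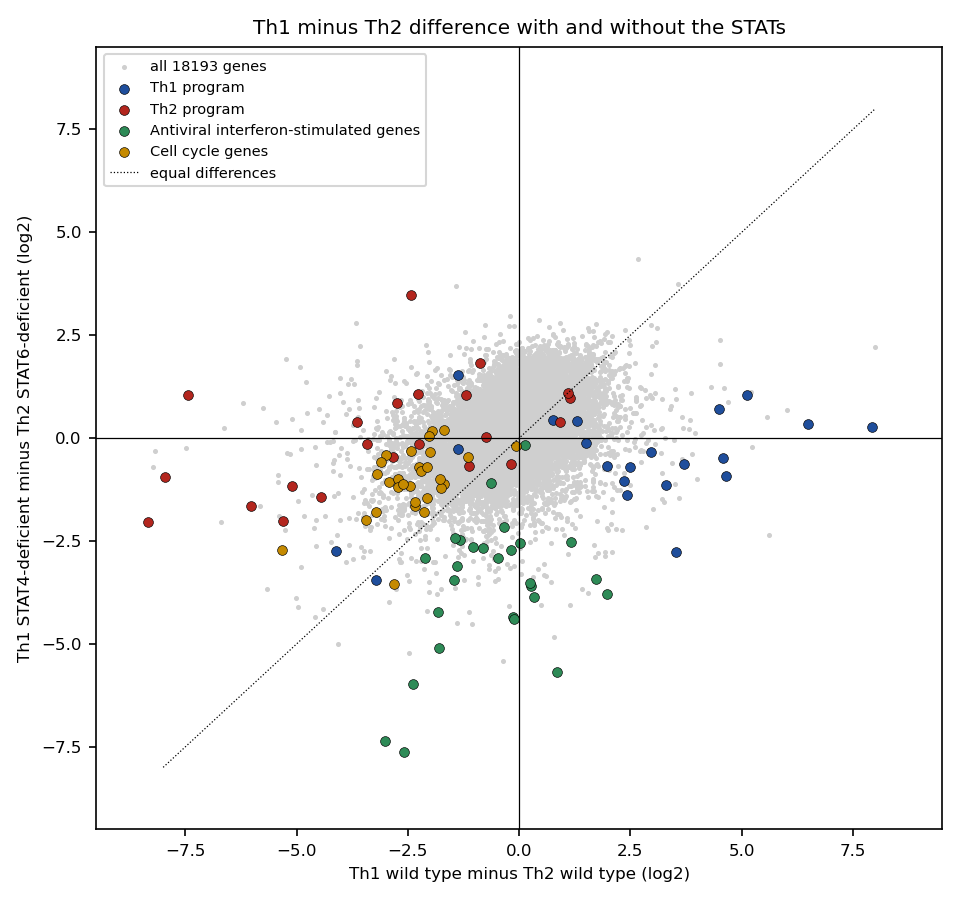
Difference between the knockouts (vertical axis, Th1 STAT4-deficient minus Th2 STAT6-deficient, log2) against the difference between the wild types (horizontal axis, Th1 minus Th2, log2) for all 18193 genes (grey) and 4 lists (coloured), with the dotted line where the differences are equal. Most Th1 and Th2 list genes lie far from 0 on the horizontal axis and nearer to it on the vertical axis, most cell cycle genes lie in the lower left, and antiviral genes lie at a knockout difference down to −7.64.

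Among the remaining cytokines Csf2, which encodes GM-CSF, differed most. It read 13.31 in wild type Th1, 10.79 in STAT4-deficient Th1, 12.90 in wild type Th2 and 13.96 in STAT6-deficient Th2 (−3.17), with little wild type difference (0.41). Il3 read 13.46 and 14.57 in the knockouts (−1.11, called in 1 of the 4 other scalings), and Ebi3, a subunit of IL-27 and IL-35, read 7.65 and 10.10 (−2.45). Of 11 such cytokines at the minimum 4 were higher in STAT6-deficient Th2 and 1 in STAT4-deficient Th1 (45.5% called, against 22.9% of all genes).

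The costimulatory ligands Cd86 and Cd80 were higher in Th1 between the wild types and in STAT6-deficient Th2 between the knockouts. Cd86, a ligand of CD28 and CTLA-4, read 9.12 in Th1 wild type, 3.49 in Th2 wild type, 5.03 in STAT4-deficient Th1 and 7.38 in STAT6-deficient Th2, so a difference of 5.62 became −2.35, or −1.56 with the dimmer array at the level minimum. Cd80, the related ligand, turned from 2.17 to −2.21, and Cd70, the ligand of CD27, from 1.77 to −2.78. The inhibitory receptor Lag3 read 6.84 and 8.89 in the knockouts (−2.05), and Pdcd1, which encodes PD-1, read 9.49 and 10.96 (−1.47), neither of them called between the wild types. Of 12 costimulatory and inhibitory receptors 5 were higher in STAT6-deficient Th2 and 1 in STAT4-deficient Th1 (Cd96, 1.03). So 50% were called, against 22.9% of all genes. The wild types had 7 higher in Th1 and 1 in Th2. Of those 7, Cd86 and Cd80 were called the other way, Cd96 kept its call and 4 were not called.

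Tumour necrosis factor family genes split. Tnfsf8, the CD30 ligand, read 12.20 and 10.65 in the wild types and 11.90 and 9.23 in the knockouts (2.67), and Cd40lg, which gives help to B cells, read 10.13 and 8.91 (1.22, called in 3 of the 4 other scalings). Tnfrsf9, the receptor 4-1BB, read 11.60 and 13.93 in the wild types and 11.14 and 12.85 in the knockouts (−1.71). Of 14 members 2 were higher in STAT4-deficient Th1 and 5 in STAT6-deficient Th2, so 50% were called, against 22.9% of all genes.

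Among 32 immediate targets of T cell receptor signalling, 15 were higher in wild type Th1 and 1 in wild type Th2 (median 0.87). Between the knockouts 1 was higher in STAT4-deficient Th1 and 6 in STAT6-deficient Th2 (median −0.30), and the second count ran from 3 to 11 over the other scalings. That is 21.9% called, near the 22.9% of all genes. Nr4a2, an orphan nuclear receptor, turned from 1.99 to −2.24 in its main probe set, though another of its probe sets was at 0.36. Junb, an AP-1 subunit, read 11.68 and 10.49 in the knockouts (1.19).

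Cytotoxic genes differed in both directions. Klrd1, which encodes the NK receptor chain CD94, read 11.36 in Th1 wild type, 3.36 in Th2 wild type, 9.58 in STAT4-deficient Th1 and 7.38 in STAT6-deficient Th2, a kept difference of 2.20. Nkg7, a granule protein, read 12.32, 7.10, 8.95 and 7.83 (1.12, called in 3 of the 4 other scalings), and Ctsw, a cathepsin of cytotoxic cells, differed by 1.56. Gzma, granzyme A, read 12.59 and 13.67 in the wild types and 8.54 and 6.39 in the knockouts (2.16), while Gzmb, granzyme B, was higher in STAT6-deficient Th2 at 13.57 against 11.73 (−1.84).

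Several genes were higher in STAT4-deficient Th1 than in any other array or kept a Th1 bias. Il6ra, the binding chain of the IL-6 receptor, read 8.55 in wild type Th1, 10.03 in STAT4-deficient Th1, 7.63 in wild type Th2 and 7.24 in STAT6-deficient Th2 (2.78, and 3.17 in another probe set). Alox5ap, which presents arachidonic acid for leukotriene synthesis, read 6.22, 10.34, 5.54 and 8.25 (2.09), and the leukotriene C4 synthase gene Ltc4s read 6.4, 7.13, 5.97 and 4.27 (2.87). Myl10, a myosin light chain, had the largest positive difference, at 9.42 against 5.08 (4.34). Klrb1f, an NK-type lectin, read 7.90 and 4.34 in the wild types and 8.19 and 4.44 in the knockouts (3.75). The dimmer arrays of Ltc4s, Myl10 and Klrb1f were below the level minimum, and with these at the minimum the differences were 1.32, 3.6 and 2.37.

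Of 10 genes of naive and recirculating T cells 4 were higher in STAT4-deficient Th1 (2 to 5 over the other scalings), 1 in STAT6-deficient Th2 and 5 were not called (median 0.67, and 0.30 to 0.84 over the other scalings). The called share was 50%, against 22.9% of all genes. S1pr1, which lets T cells leave lymph nodes, read 9.40 in STAT4-deficient Th1 and 7.31 in STAT6-deficient Th2 (2.09), and its regulator Klf2 read 10.41 and 9.28 (1.13). Foxp3, the transcription factor of regulatory T cells, read 4.34, 6.81, 5.13 and 5.27 in wild type Th1, STAT4-deficient Th1, wild type Th2 and STAT6-deficient Th2 (1.54), with the other 3 arrays below the level minimum. With STAT6-deficient Th2 set to the minimum the Foxp3 difference was 0.99. Cd4 itself read 11.65 in STAT4-deficient Th1 and 9.68 in STAT6-deficient Th2 (1.97), beside 10.79 and 9.75 in the wild types. Where a gene had several probe sets, all of them were on the same side for 78.9% of 374 genes called higher in STAT4-deficient Th1 and for 57.4% of 646 called higher in STAT6-deficient Th2.

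**Figure D5:**
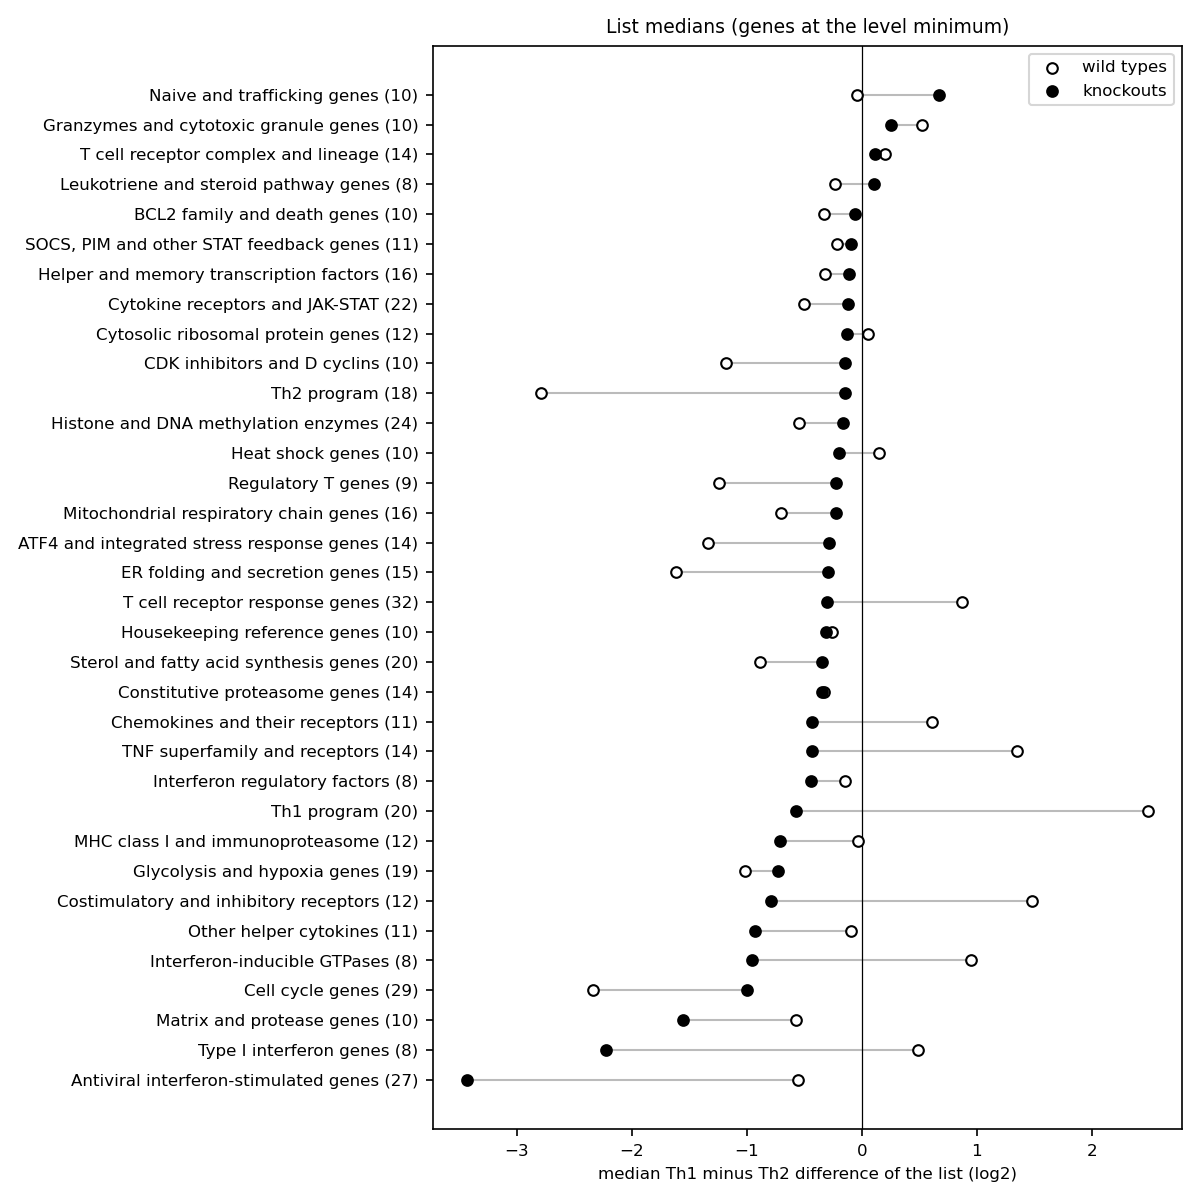
Median Th1 minus Th2 difference (log2) of each list between the knockouts (filled) and between the wild types (open), with the number of genes at the level minimum between the knockouts in brackets. The Th1 list runs from 2.49 in the wild types to −0.57 in the knockouts and the Th2 list from −2.79 to −0.15, while the antiviral list has the most negative knockout median at −3.43.

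The lists of ribosomal protein and constitutive proteasome genes differed little. None of 12 cytosolic ribosomal protein genes and none of 14 constitutive proteasome genes was called between the knockouts, with medians of −0.13 and −0.35, and the sign of the first turned with the scaling (−0.50 to 0.18). Of 10 reference genes 1 was higher in each knockout, which is 20% called and near the 22.9% of all genes. Gusb was higher in STAT6-deficient Th2 (−1.25, and 0.64 in its other probe set). Actb read 13.82 in STAT4-deficient Th1 and 12.58 in STAT6-deficient Th2 (1.24) in its main probe set, with 0.16 in the other. The STAT6-deficient array is the one with the wide gap between 3′ and 5′ actin controls.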

How the data were processed

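Total RNA from each culture was hybridised to 1 Affymetrix mouse array. The authors deposited 1 log2 expression value for each probe set, made with RMA (robust multi-array average), per the submitters' processing notes. No version is given there, nor whether the 4 arrays were normalized together, and their medians differ as deposited, so scaling was varied. Of 45037 probe sets outside the controls, 34945 had 1 gene in the platform annotation, 932 several and 9160 none, and only the first were used, with symbols updated through a RefSeq gene table (34741 matched). Each gene was represented by its brightest probe set, by the mean of the 4 arrays. A call needed 1 log2 unit and a brighter array at the pooled median, 5.82. With 1 array a group no test was run.

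The 43 gene lists (575 of 635 members measured) and the comparison itself were chosen with earlier results of these data known. The naming rule took the 15 largest differences each way with all probe sets on 1 side, the 8 largest wild type differences each way that were kept and that turned, all Th1 and Th2 list members, the targeted genes, and per other list up to 4 called members and the 3 nearest to 0. Named outside it, after their values were seen, were B2m, Cd14, Cd96, Cxcl11, H2-K1, Ifi27, Ifit3, Ifna1, Ifna9, Ifnz, Igtp, Irf1, Irgm1, Irgm2, Itgam, Junb, Mcm5, Siglech, Stat2, Top2a, Tpi1 and Xbp1. The alternatives were 4 scalings (array median, quantile, loess, hybridization controls), 2 probe set rules, a 4-fold call, and a level minimum at the 75th percentile or none. Promoters were the RefSeq windows of 250 bases before to 50 after a start, on GRCm38.p6. The scripts were tested on simulated arrays and ran under Python 3.11.15, with pandas 2.3.3, numpy 2.4.6, scipy 1.17.1 and statsmodels 0.14.6.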

Additional observations from a re-analysis of the deposited data

Results flagged for a closer look

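Among the genes given by the naming rule, 35 were called in both comparisons in opposite directions, 19 of them higher in Th1 and 16 higher in Th2 between the wild types. The difference between the comparisons was not tested, since each side is 1 array. The values below are Th1 minus Th2 in log2 units between the knockouts, with the wild type value after it where given.

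Genes that turned toward STAT6-deficient Th2 included chemokines, their receptors and costimulatory ligands of wild type Th1 cells. They were Ccl5 (−2.77 after 3.52), Cxcl10 (−2.17 after 2.85), Cxcr3 (−1.14 after 3.31), Il18rap (−1.38 after 2.42), Cd86 (−2.35 after 5.62), Cd80 (−2.21 after 2.17), Cd70 (−2.78 after 1.77) and Fasl (−1.05 after 2.35). Interferon targets turned the same way: Gbp2 (−1.12), Gbp3 (−1.47), Gbp7 (−1.67) and Ifit1 (−2.52). The NK-type receptor Cd160 and its relative in function Crtam were at −1.79 and −1.29, and the nuclear receptors Nr4a2 and Rora at −2.24 and −2.77, with a probe set of opposite sign in each of these nuclear receptors. Spin4 (−1.0), Gm8369 (−1.46) and Ipcef1 (−1.54) completed the group. Under the 4 other scalings Spin4, Gbp2 and Fasl each kept the call in 1 and Cxcr3 in 2.

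Genes that turned toward STAT4-deficient Th1 included receptors and signalling genes. Ccr8 was at 3.48 after −2.43, Il4ra at 1.04 after −1.19, Ifngr2, a chain of the interferon gamma receptor, at 1.91 after −2.81, Cxcr6 at 1.54 after −1.37 and Cnr2, the cannabinoid receptor of immune cells, at 3.68 after −1.41. The STAT6-deficient array read 3.14 for Cnr2, and with that array at the level minimum the difference was 1.01. The feedback inhibitor Socs1 was at 1.16 after −1.13, the kinase subunit Pik3cg at 1.32 after −3.85, Gzma at 2.16 after −1.08 and the integrin Itgae at 1.02 after −1.43. Wild type Th2 genes with large differences were Epas1 (1.04 after −7.43), Myo6 (1.93 after −5.23), Tanc2 (1.72 after −4.93), Efna5 (1.36 after −4.79), Spsb1 (1.03 after −4.28), Chn2 (1.43 after −3.79) and Crebl2 (2.80 after −3.67). With the dimmer array at the level minimum Tanc2 (0.40) and Chn2 (0.51) were no longer called, while Efna5 was at 1.02 and Crebl2 at 2.05. Epas1, Spsb1 and Itgae kept the call in 2 of the 4 other scalings, and Efna5, Pik3cg, Chn2, Il4ra and Socs1 in 3.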

How the results depend on the processing

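Calls were recomputed under 9 alternatives, and of the 164 named genes called between the knockouts 142 to 156 kept the call under each of the 4 scalings. With the median of all probe sets 130 kept it, and 159 with the main probe set picked on the knockout arrays. The higher level minimum kept 132 and a 4-fold call 72. Of all 2875 called genes, 1806 kept the call with the median of all probe sets. Counts below are given as higher in STAT4-deficient Th1, then higher in STAT6-deficient Th2. Centring arrays on their medians gave 603 and 2607 genes, kept shares of 17.0% (Th1) and 39.5% (Th2), turned shares of 15% and 1.37%, 1 and 10 genes of the Th1 list, and 2 and 7 of the Th2 list. It moved the median difference over all genes from 0.21 to −0.16. Quantile scaling gave 1247 and 1088 genes (53.4% toward Th1) and loess 984 and 1089 (47.5%). Centring on the hybridization controls gave 2217 and 1025 genes, a kept Th2 share of 14.1% and a turned Th2 share of 4.62%. The median of all probe sets gave 1463 and 1012 genes (59.1% toward Th1), and the main probe set picked on the knockout arrays 1572 and 1300 (54.7%). A 4-fold call gave 144 and 244 genes (37.1%), kept shares of 7.34% and 11.4%, turned shares of 3.95% and 0.636%, 0 and 3 Th1 list genes, 1 and 1 Th2 list genes, and 2 cell cycle genes. A level minimum at the 75th percentile gave 366 and 1020 genes (26.4%), a kept Th1 share of 18.5%, a turned Th2 share of 1.52% and 1 Th1 list gene higher in STAT4-deficient Th1. With no minimum the counts were 2836 and 1358 (67.6%) and the turned Th1 share 5.53%. The sign of named differences turned under another choice of probe set in Hsp90aa1 (−0.088) and Serpinf1 (1.18) and, with the median of all probe sets, in Prxl2a (0.62), Tanc2 (−0.30), Tap1 (0.16), Ahr (0.10), Tyms (0.46), Pfkp (0.32) and Aldh18a1 (0.85). The cause of these changes was not tested. No paired analysis was possible because each group has 1 array. Precision is limited by that single array and, for dim genes, by signal near background.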

Other observations

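Some secreted factors were higher in STAT6-deficient Th2 outside the cytokine lists. Inhba, which encodes a chain of activin A, read 8.75 in Th1 wild type, 7.59 in STAT4-deficient Th1, 13.34 in Th2 wild type and 11.94 in STAT6-deficient Th2, so its difference of −4.58 between the wild types stood at −4.35 between the knockouts. Penk, the enkephalin precursor, read 8.10, 8.76, 13.75 and 12.43 in the same order (−3.67). The chemokine Ccl1 read 9.83, 12.24, 11.83 and 14.45, a difference of −2.0 in the wild type pair and −2.21 in the knockout pair. Il33, an alarmin, was at or below 4.80 on the other arrays and at 8.17 in STAT6-deficient Th2 (−4.49, or −2.35 with STAT4-deficient Th1 at the level minimum). Il1r2, the decoy receptor for IL-1, read 9.19, 7.33, 12.68 and 9.16 (−1.83). Among 10 matrix and protease genes that reached the minimum, 6 were higher in STAT6-deficient Th2 and 1 in STAT4-deficient Th1 (median −1.56). So 70% were called, against 22.9% of all genes, among them the protease inhibitor Timp1, at 5.82 in STAT4-deficient Th1 and 8.75 in STAT6-deficient Th2.

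Among 24 enzymes of histone and DNA methylation that reached the minimum, 6 were higher in STAT6-deficient Th2 (2 to 7 over the other scalings) and 1 in STAT4-deficient Th1. That is 29.2% called, near the 22.9% of all genes. Tet3, which oxidises methylated cytosine, read 7.64, 8.20 and 7.86 in Th1 wild type, STAT4-deficient Th1 and Th2 wild type and 5.24 in STAT6-deficient Th2 (2.97, or 2.38 with that array at the level minimum). Uhrf1, which guides maintenance methylation, was at 6.95 in STAT4-deficient Th1 and 8.94 in STAT6-deficient Th2 (−1.99), with another of its probe sets at 0.45.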
